A study of Drosophila melanogaster with 8 samples.

Results

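Chromosome 4 of Drosophila melanogaster, the dot chromosome, was described through the 86 genes whose locus lies on it, out of 15146 genes in each deposited table. The members were taken by position alone, and genes with names beginning Rp were left out. The same selection on arm 3L gave 2863 genes, which serve as the background. All libraries came from flies of the laboratory strain w1118. Sperm RNA was taken from adult males on medium sugar food (30 g/L) or high sugar food (300 g/L), and embryo RNA from whole F1 animals at stage 17, sired by males on the same foods. Each of the 4 groups had 2 libraries, which the authors combined into 1 FPKM value per gene and group (fragment counts scaled by transcript length and by library). Values of single libraries were not analysed here. The group values therefore carry no SD, and their depth is unknown.

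The fourth chromosome is the smallest autosome of the fly. Its gene-bearing arm carries marks of heterochromatin, such as HP1a and methylated H3K9, along nearly its whole length, and yet its genes are transcribed. The protein encoded by Pof binds active genes of this chromosome, and the methyltransferase encoded by egg acts there. Several developmental regulators lie on the chromosome, among them ci, the effector of Hedgehog signalling, pan, the TCF factor of Wnt signalling, and the Pax6 genes ey and toy.

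The tissue labels were checked against marker genes. In sperm all 10 spermatid markers had a mean of at least 1 FPKM, against 1 of 10 in embryos, and all 5 larval cuticle markers did so in embryos, against 1 of 5 in sperm. The sperm table also held muscle RNA, with all 5 muscle markers above 1 FPKM and a summed level of 2065 FPKM in the medium sugar group and 1991 FPKM in the high sugar group. In such bulk samples fewer cells of a type and less RNA per cell cannot be told apart.

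Genes of chromosome 4 had high RNA levels in embryos, and both paternal diets gave nearly the same distribution. The median member stood at 62.3 FPKM in the medium sugar group and 63.2 FPKM in the high sugar group. The median 3L gene had 4.10 and 4.34 FPKM, and the medians of the other large arms (X, 2L, 2R and 3R) lay between 3.04 and 3.95 FPKM in the same groups. Of the 86 members, 79 (91.9%) reached a mean of 1 FPKM, 69 (80.2%) reached 10 FPKM and 22 (25.6%) reached 100 FPKM. On 3L these shares were 67.0%, 34.3% and 4.86%. All 76 members that the newer BDGP6 annotation lists as protein-coding reached 1 FPKM in embryos, against 69.0% of the protein-coding 3L genes. The members made up 0.568% of the genes of the table and 0.976% of its summed FPKM in the medium sugar group, or 0.875% in the high sugar group.

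In sperm the members were again above the background, by a smaller factor. Their median was 20.0 FPKM in the medium sugar group and 16.2 FPKM in the high sugar group, where the median 3L gene had 2.26 and 2.50 FPKM. A mean of 1 FPKM was reached by 68 members (79.1%) and 10 FPKM by 53 (61.6%), against 60.4% and 24.1% on 3L. Their share of the summed FPKM was 0.342% and 0.280%, below their share of the genes, whereas in embryos it was above it. In sperm X, 2L, 2R and 3R were also below their share of the genes. X had 4.81% of the medium sugar sum for 15.3% of genes, and 3R had 14.3% for 23.4%. Of the large arms only 3L was above, with 37.0% of that sum for 18.9% of genes. Since FPKM is scaled to the fragments of each table, levels are compared with the background of the same table.

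**Figure D1:**
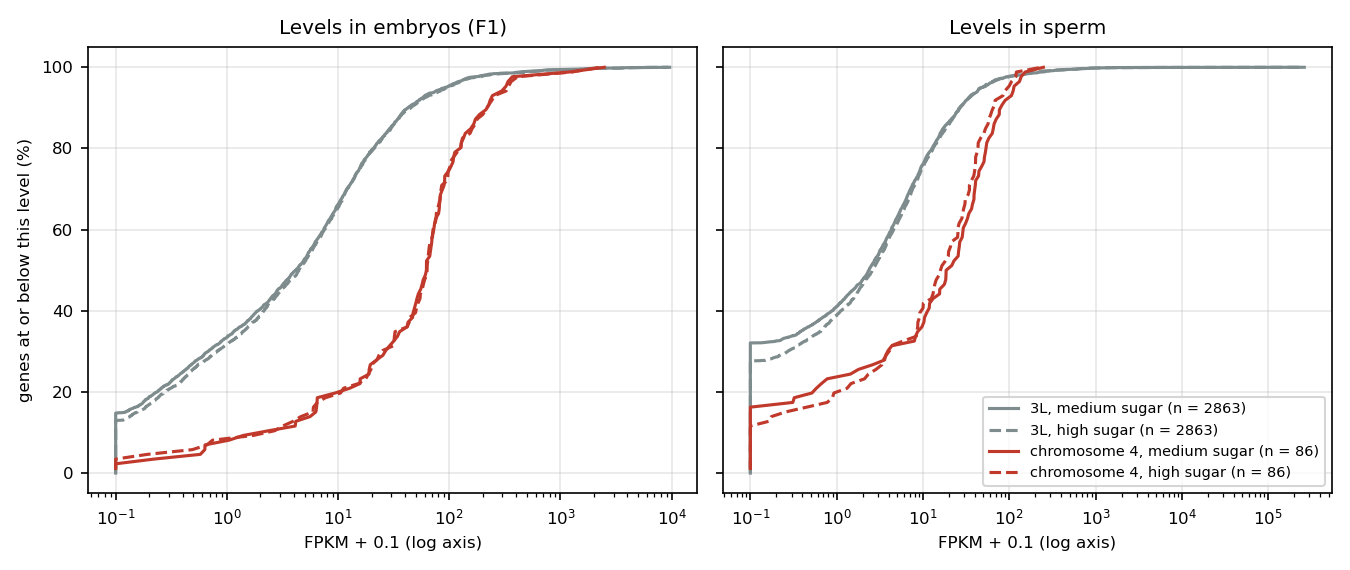
Cumulative share of genes (y axis, percent) at or below a given level (x axis, FPKM + 0.1, log axis) in embryos and sperm, for chromosome 4 (red, n = 86) and 3L (grey, n = 2863), with solid lines for medium and dashed lines for high sugar. The chromosome 4 curves lie to the right of the 3L curves over most of the range, with medians of 62.3 and 63.2 FPKM in embryos and 20.0 and 16.2 FPKM in sperm.

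The members also shared a gene structure that the selection did not use. In the newer annotation, which held 83 of the 86 identifiers, the protein-coding members spanned a median of 10444.5 bp with 9 merged exon blocks, against 2092 bp and 3 blocks for protein-coding genes of 3L. By span, the longer genes had the higher levels on 3L, whereas on chromosome 4 the shortest did. The members stood above 3L in each class of length. Among genes spanning under 5 kb the embryo medians of the medium sugar group were 98.4 FPKM for 15 members and 3.05 FPKM for 1942 genes of 3L. Between 5 and 20 kb they were 64.5 FPKM for 48 members and 8.10 FPKM for 450 genes, and from 20 kb they were 58.2 FPKM for 13 members and 10.1 FPKM for 159 genes. In sperm the same 3 classes gave 44.4, 25.6 and 8.57 FPKM on chromosome 4 against 2.16, 4.72 and 7.15 FPKM on 3L. By span, the distance between the chromosomes in sperm was thus widest for short genes and smallest for the longest. By exonic length it stayed wide in the longest class, of 5 kb or more, where 33 members had a median of 28.4 FPKM and the genes of 3L 7.33 FPKM. In embryos the levels of the members did not fall steadily with exonic length. Their medium sugar medians were 80.3 FPKM under 2 kb, 52.6 FPKM from 2 to 5 kb and 75.4 FPKM from 5 kb.

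The first entries of the chromosome had low levels. JYalpha, CR32011, CR32010 and CR32009, the entries with the lowest coordinates, at 24053 to 52259 (BDGP5 build), were all below 1 FPKM in both groups of both tables. JYalpha, a sodium pump subunit gene known for its role in hybrid sterility between Drosophila species, was listed at 0 throughout. The newer annotation lists these CR entries as pseudogenes and held no match for JYalpha. All other members lay between plexB, which starts at 53104, and the end of Caps at 1275487. Among them mir-954, at 646752 to 646838, was also listed at 0 in both groups of both tables. Over the 5 stretches of 250 kb up to 1250 kb, the embryo medians of the medium sugar group ran from 14.1 FPKM (14 members from 750 to 1000 kb) to 80.8 FPKM (20 members from 1000 to 1250 kb). The same stretches had the lowest and the highest sperm median of the 5, and the other 3 lay between 15.5 and 19.4 FPKM with medium sugar. The first stretch, which holds JYalpha and the CR entries named above, had an embryo median of 54.8 FPKM with medium sugar.

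**Figure D2:**
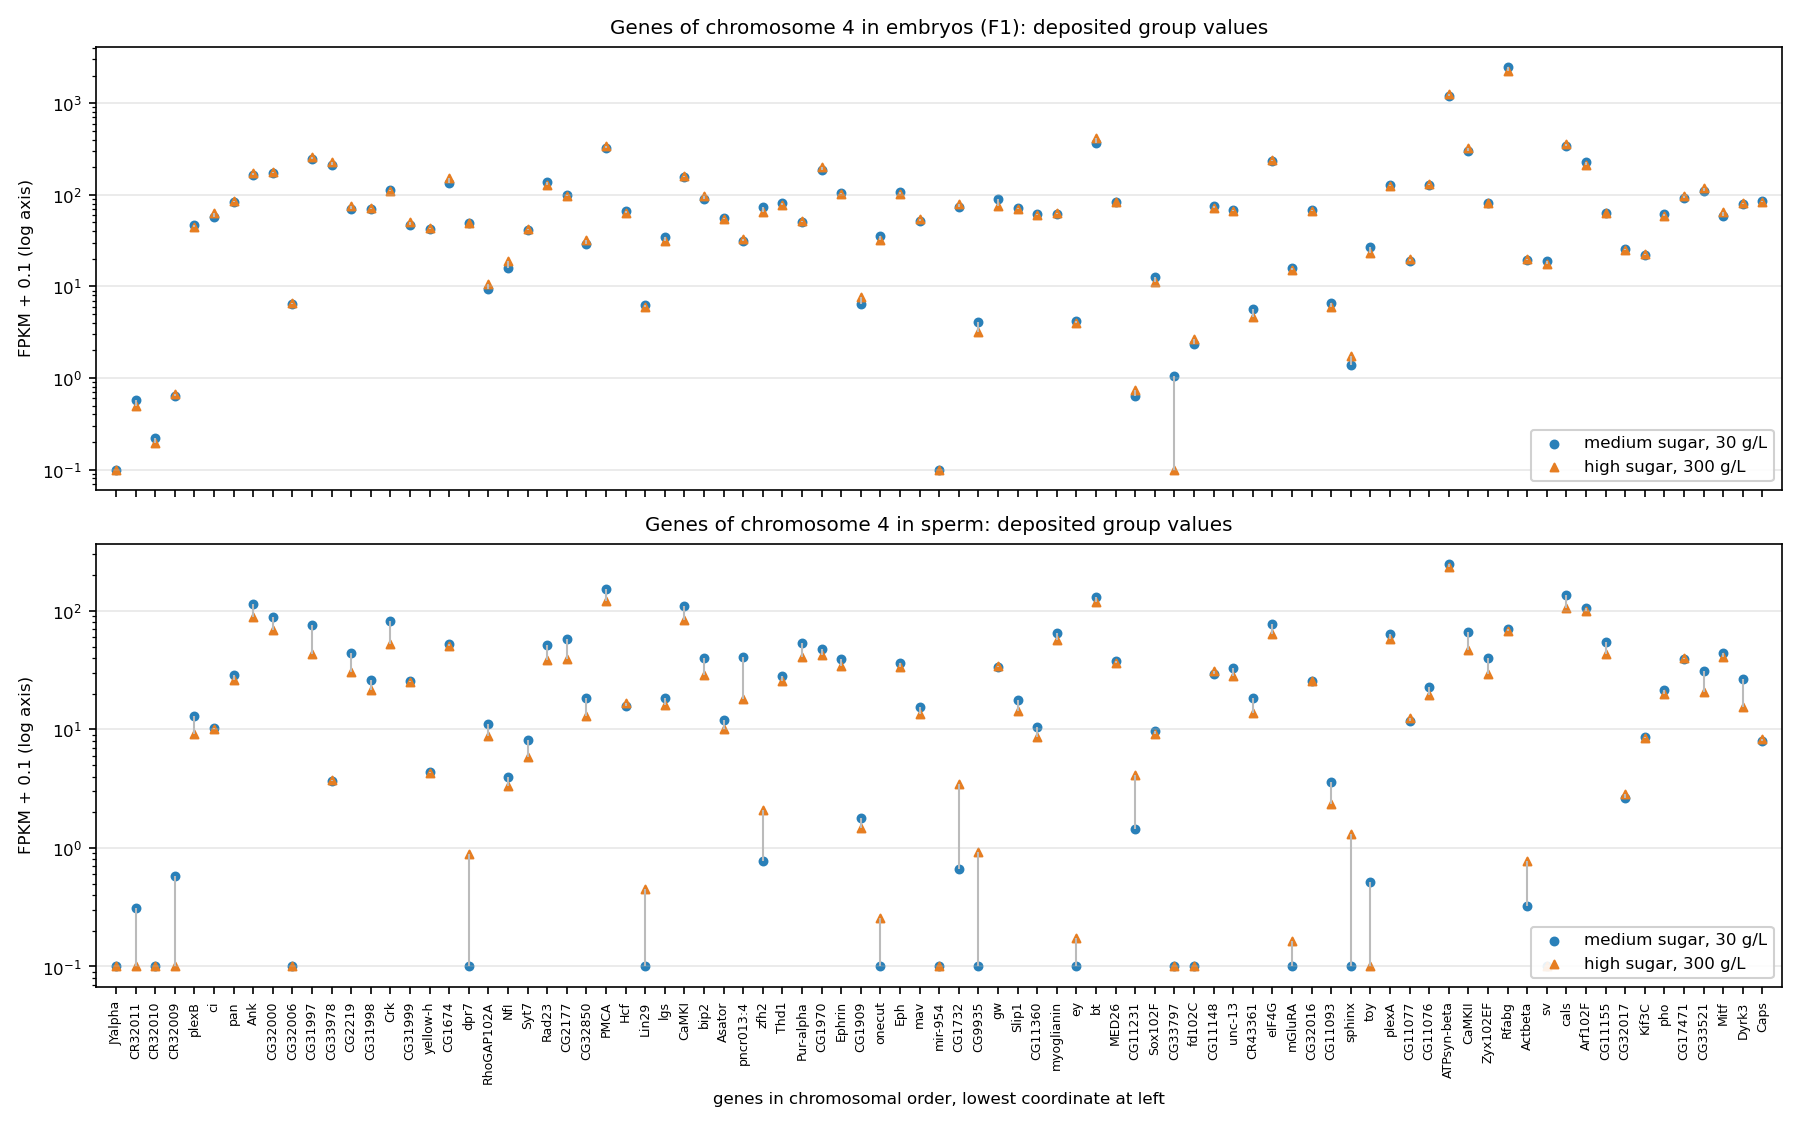
FPKM + 0.1 (y axis, log axis) of the genes of chromosome 4 described here in chromosomal order (x axis) in embryos (top) and sperm (bottom), with circles for medium and triangles for high sugar; each point is 1 deposited group value. The pairs nearly coincide in embryos, whereas most triangles lie under their circles in sperm and many low genes are listed at 0 in a group.

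The comparison of embryos asks whether the sugar eaten by the fathers went along with other RNA levels in their offspring. For chromosome 4 the group values differed little, and no member was called changed. Of 79 tested members, 0 were higher and 0 were lower in the authors' deposited table, with a call meaning an adjusted p under 0.05. Of all tested genes there, 0.807% were called, 0.708% as higher and 0.0984% as lower. On 3L 32 of 1961 tested genes were called higher and 2 lower. At an unadjusted p under 0.05 the count was again 0 of 79, against 3.34% of all tested genes (2.55% higher and 0.787% lower) and 5.05% on 3L. The smallest unadjusted p of a member in the authors' deposited table was 0.281, and the smallest adjusted p was 0.999. Markers moved between the same embryo groups: all 5 larval cuticle markers were called higher with high sugar, with summed levels of 460 and 1489 FPKM, and all 5 muscle markers were higher with no call, with sums of 3375 and 3878 FPKM. Their part in the values of chromosome 4 was not tested.

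The embryo differences were spread more narrowly on chromosome 4 than on 3L. Over the 79 members with a mean of at least 1 FPKM, the median log2 ratio of high over medium sugar (of FPKM + 0.1) was 0.01, with 45 members higher and 34 lower. Over 1917 genes of 3L it was -0.04, with 57.0% of them lower. An absolute log2 ratio of at most 0.25 held for 75 of the 79 members (94.9%) and for 67.7% of the 3L genes. Levels are part of this contrast, so it was repeated within level classes. Between 10 and 100 FPKM the interquartile range of the log2 ratio was 0.12 over 47 members and 0.23 over 843 genes of 3L. From 100 FPKM it was 0.11 over 22 members and 0.20 over 139 genes. Between 1 and 10 FPKM it was 0.29 over 10 members and 0.41 over 935 genes. In that lowest class, 60% of members and 56.7% of 3L genes lay within 0.25, so there the shares were close. By exonic length, for protein-coding genes at 10 FPKM or more, the range was 0.05 against 0.24 under 2 kb. It was 0.11 against 0.19 from 2 to 5 kb, and 0.14 against 0.18 from 5 kb, where 31 members and 117 genes of 3L were counted. No member reached an absolute log2 ratio of 1, where 118 of the 1917 genes of 3L did (6.16%). On the other large arms this share was lower than on 3L, from 2.76% on X to 4.08% on 2L. The unadjusted p was under 0.5 for 6 of 79 tested members (7.59%), for 29.9% of 3L genes and for 28.8% of all tested genes in the authors' deposited table. These shares describe the pooled values and carry no test of the chromosomes against each other.

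**Figure D3:**
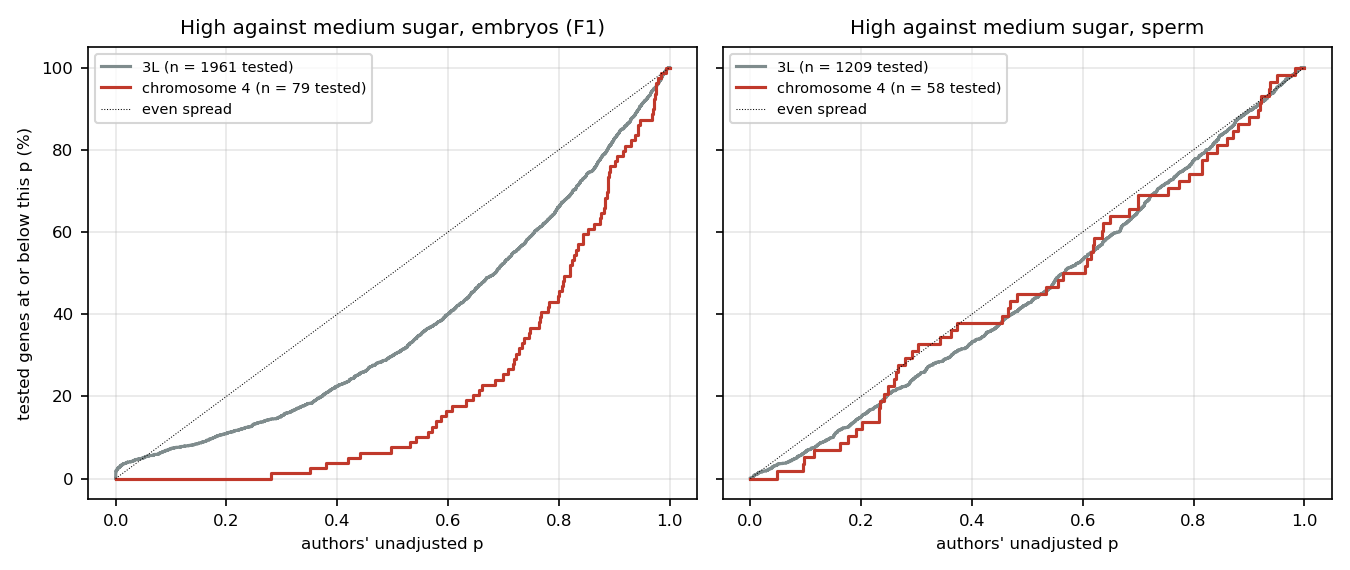
Share of tested genes (y axis, percent) at or below each unadjusted p of the authors' deposited table (x axis) in embryos and sperm, for chromosome 4 (red) and 3L (grey); the dotted line marks an even spread. In embryos no chromosome 4 gene lies below 0.281 and the red curve stays under the grey, whereas in sperm both curves run close together.

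The most abundant members in embryos carry lipids, energy and muscle functions. Rfabg, which encodes apolipophorin, the main lipid carrier of the haemolymph, had 2476 FPKM in the medium and 2253 FPKM in the high sugar group. It lies at 1085538 to 1096830 of chromosome 4. ATPsyn-beta, the catalytic beta subunit of mitochondrial ATP synthase, had 1199 and 1270 FPKM. These were the highest values of the 86 members, and the high sugar values differed from the medium sugar values by -9.01% and 5.92%. The giant muscle protein gene bt (projectin), at 745030 to 796707, had 369 and 412 FPKM. Of the remaining leaders, the calsyntenin gene cals had 338 and 361 FPKM, the calcium pump gene PMCA 324 and 341 FPKM, and the calcium-dependent kinase gene CaMKII 297 and 325 FPKM. CG31997 had 244 and 256 FPKM. Each of the 5 genes from bt to CG31997 was somewhat higher in the high sugar group, by 4.61% to 11.7%, and none was called.

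The list of energy, transport and metabolism genes had 7 of 7 members on the chromosome at 1 FPKM or more, of which 5 were higher and 2 lower, with a median log2 ratio of 0.07 and 0 calls. CG1970, which encodes the 49 kDa subunit of respiratory complex I (ND-49), had 187 and 200.5 FPKM. The zinc transporter CG2177 (Zip102B) had 98.4 and 97.0 FPKM and yellow-h 42.5 and 43.6 FPKM.

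Transcription and chromatin regulators formed the largest list, with 17 members, all above 1 FPKM in embryos. Their median log2 ratio was -0.07, with 5 higher, 12 lower and 0 calls. Of the Wnt effectors, pan had 82.7 and 85.4 FPKM and its cofactor lgs 34.1 and 31.3 FPKM. MED26, of the Mediator complex, had 83.1 and 83.0 FPKM, the Hedgehog effector ci 56.9 and 63.1 FPKM, and the Polycomb DNA-binding protein gene pho 60.9 and 58.4 FPKM. Pax genes were lower in level. The Pax6 gene toy had 26.7 and 23.2 FPKM, its relative ey 4.07 and 3.84 FPKM, and the Pax2 gene sv 18.9 and 17.7 FPKM. The homeodomain genes zfh2 and onecut had 72.8 and 64.6 FPKM and 35.7 and 31.8 FPKM. The forkhead gene fd102C had 2.27 and 2.59 FPKM. Developmental regulators thus lay on both sides, with pan, ci and fd102C higher with high sugar and the Pax and homeodomain genes lower, and the authors' test called none of them.

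The regulators of RNA and repair had 6 members, with a median log2 ratio of -0.09, 1 higher, 5 lower and 0 calls. The translation initiation scaffold eIF4G had 233 and 242 FPKM and Rad23, a receptor that brings ubiquitinated proteins to the proteasome, 139 and 129 FPKM. The microRNA silencing factor gw had 89.7 and 76.2 FPKM, which was among the 4 lowest log2 ratios (-0.24) of members at 5 FPKM or more. The others of these 4 were CR43361 (-0.27), toy (-0.20) and Sox102F (-0.18). At the other end stood CG1909 (0.27), NfI, a nuclear factor I gene (0.24), CG1674 (0.20) and Mitf, a regulator of lysosomal genes (0.16). Even these extremes had unadjusted p-values from 0.351 to 0.608 in the authors' deposited table.

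Signalling genes, 14 in all, had a median log2 ratio of 0.02 in embryos, with 8 higher, 6 lower and 0 calls. Among ligands of the TGF-beta family, myoglianin had 62.3 and 63.2 FPKM, mav 51.1 and 54.4 FPKM and Actbeta 19.4 and 19.9 FPKM. The receptor Eph had 108 and 102 FPKM and its ligand Ephrin 104 and 102 FPKM. The semaphorin receptors plexA and plexB had 128 and 126 FPKM and 46.7 and 43.8 FPKM. Receptor and ligand of the Eph pair thus stood close to each other in both groups. CaMKI had 156 and 160 FPKM.

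Neuronal and synaptic genes, 9 in all, had a median log2 ratio of 0.01, with 5 higher, 4 lower and 0 calls. Caps, which primes dense-core vesicles, had 86.4 and 84.1 FPKM, and unc-13, which primes synaptic vesicles, 67.6 and 66.0 FPKM. The GABA transporter CG1732 (Gat) had 73.8 and 78.4 FPKM. CG9935 (Ekar), a kainate-type glutamate receptor, had 4.02 and 3.08 FPKM, the lowest log2 ratio of the list at -0.37, and in the authors' deposited table its unadjusted p was 0.281. In the muscle and cytoskeleton list, bt is joined by the focal adhesion gene Zyx102EF with 81.6 and 82.2 FPKM.

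The sperm comparison asks whether the males' own food went along with other RNA levels in their sperm. Most members had a lower value in the high sugar group, and none passed the authors' test. Of 58 tested members, 0 were called higher and 0 lower in the authors' deposited table, where 0.341% of all tested genes were called, 0.325% as higher and 0.0155% as lower. On 3L the calls were 2 of 1209. At an unadjusted p under 0.05 there was 1 member, Dyrk3, or 1.72% of those tested, against 3.95% of all tested genes (3.24% higher and 0.713% lower). Dyrk3, a protein kinase gene at 1228840 to 1234433, had 26.6 FPKM in the medium and 15.3 FPKM in the high sugar group (unadjusted p = 0.0481 and adjusted p = 0.996 in the authors' deposited table).

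Over the 68 members with a mean of at least 1 FPKM, 12 were higher and 56 lower (82.4%), and the median log2 ratio was -0.21, a ratio of 0.862. The quartiles were -0.40 and -0.04, and 35 of the 68 had an absolute log2 ratio of at most 0.25. On 3L 52.1% of 1728 genes were lower and the median was -0.03. The difference lay at moderate and high levels. Of members at 10 FPKM or more, 47 of 53 (88.7%) were lower, with a median of -0.22, against 60.4% of 690 genes of 3L with a median of -0.08. On the other large arms 57.4% to 62.4% of genes at that level were lower, with medians between -0.07 and -0.09. Between 1 and 10 FPKM 9 of 15 members were lower, with a median of -0.03. By span, counting protein-coding genes at 10 FPKM or more, 11 of 13 members under 5 kb, 29 of 33 from 5 to 20 kb and 5 of 5 from 20 kb were lower, against 59.6%, 64.7% and 65.6% on 3L. Each stretch of 250 kb up to 1250 kb had more lower than higher members, from 10 of 13 to 13 of 14.

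Marker lists moved between the same sperm groups. All 10 spermatid markers were higher with high sugar (3 called), with a summed level of 459 and 1193 FPKM. Of 5 accessory gland and ejaculatory duct markers 4 were higher (1 called), with sums of 522 and 1058 FPKM. The 5 muscle markers had 2 higher and 3 lower, and the 4 neuron markers that were matched summed to 3.56 and 6.22 FPKM. For larval cuticle, 3 of 5 markers were listed at 0 in both sperm groups. Genes of 3L at 10 FPKM or more in sperm and under 1 FPKM in embryos, 59 in number, had a median log2 ratio of 0.89, and chromosome 4 had 0 genes of that kind. Among genes at 10 FPKM or more in both tables, 46 of 52 members (88.5%) and 65.6% of 497 genes of 3L were lower, with medians of -0.22 and -0.12. The part of these cell type markers in the result for chromosome 4 was not tested.

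**Figure D4:**
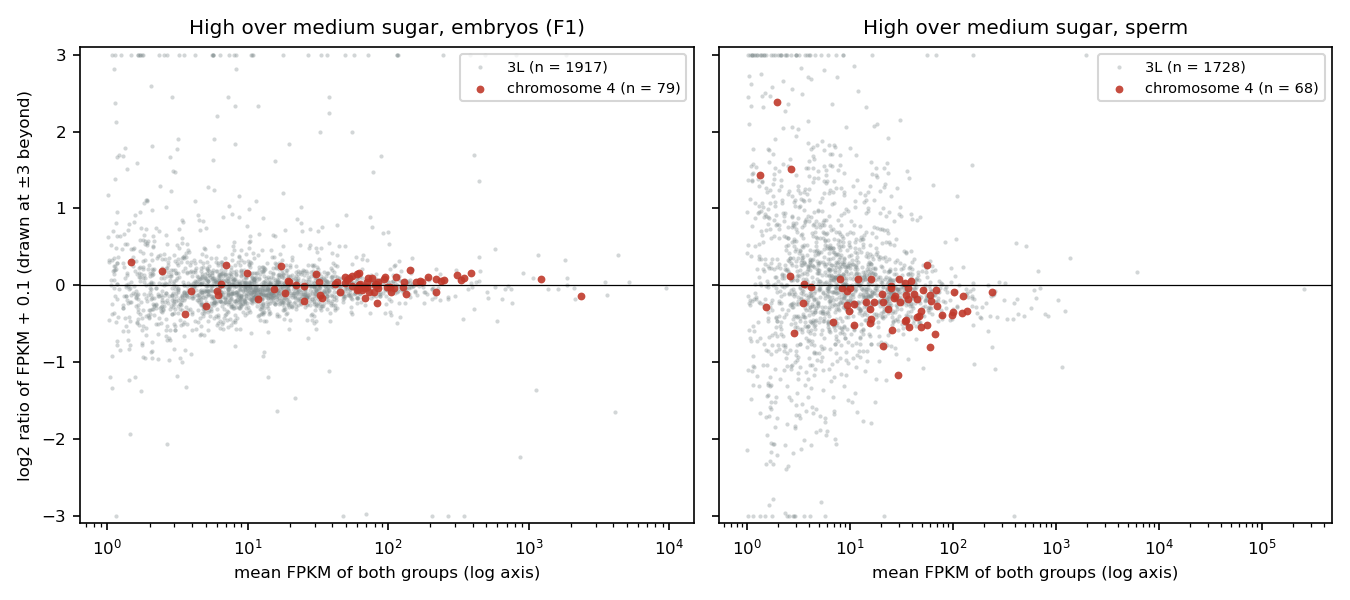
Log2 ratio of high over medium sugar (y axis, of FPKM + 0.1, drawn at 3 or -3 beyond) against the mean FPKM of both groups (x axis, log axis) for genes at 1 FPKM or more, in embryos and sperm, with chromosome 4 in red and 3L in grey. Red points lie near 0 in embryos, where 75 of 79 lie within 0.25 of it, and sit mostly below 0 in sperm, where 56 of 68 are lower.

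ATPsyn-beta was the highest of the 86 members in sperm with 248 and 234 FPKM. PMCA had 153 and 121 FPKM, cals 137 and 106 FPKM, bt 131 and 119 FPKM, and Arf102F, a small GTPase gene of the secretory pathway, 106 and 99.3 FPKM. Ank, which encodes ankyrin, a link between membrane proteins and the spectrin skeleton, had 114 and 88.9 FPKM. CaMKI had 111 and 84.4 FPKM and CG32000 89.5 and 68.4 FPKM. All 8 of these leading genes were lower in the high sugar group, with differences of -5.84% to -23.8%, and their unadjusted p-values ran from 0.232 to 0.816 in the authors' deposited table. Most genes at such levels were lower in sperm. At 100 FPKM or more, 6 of 6 members were lower, against 74.6% of 67 genes of 3L and 71.2% of all genes. The median log2 ratios of that class were -0.24 for the members and -0.16 for 3L.

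The lowest log2 ratios among members at 5 FPKM or more were those of pncr013:4 (-1.16), CG31997 (-0.81), Dyrk3 (-0.79) and the adaptor gene Crk (-0.64). The first had 40.7 and 18.1 FPKM, but it shares its locus with Asator (11.8 and 9.99 FPKM), so its own value is uncertain. CG31997 had 76.5 and 43.6 FPKM, and Crk, which couples receptors to Rac signalling, had 82.1 and 52.8 FPKM. Their unadjusted p in the authors' deposited table was 0.0962 for the former and 0.0953 for Crk. Log2 ratios above 0 included those of the chromatin-associated factor Hcf with 15.6 and 16.5 FPKM (0.09), CG11077 with 11.7 and 12.4 FPKM (0.08) and CG11148 (Gyf) with 29.3 and 30.8 FPKM (0.08).

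By role, the signalling list had 1 of 13 members at 1 FPKM or more higher and 12 lower in sperm, with a median log2 ratio of -0.24 and 0 calls. myoglianin had 65.1 and 56.6 FPKM, mav 15.5 and 13.3 FPKM and plexA 63.4 and 58.0 FPKM. The exception was CG17471 (PIP4K), a phosphoinositide kinase, with 38.8 and 40.3 FPKM. Energy, transport and metabolism genes had 1 higher and 6 lower, with a median of -0.09 and 0 calls. Rfabg had 70.4 and 67.4 FPKM, CG1970 47.8 and 42.3 FPKM, and CG2177 57.9 and 39.5 FPKM. RNA and repair genes had 2 higher and 4 lower with a median of -0.09 and 0 calls. Of these, eIF4G had 76.7 and 63.4 FPKM, Rad23 51.5 and 38.7 FPKM, and gw 33.8 and 34.4 FPKM.

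Transcription and chromatin regulators ranged in sperm from moderate levels to 0. Of 17, 11 reached 1 FPKM, with 2 higher, 9 lower, a median log2 ratio of -0.11 and 0 calls. Pur-alpha, a binder of single-stranded nucleic acids, had 53.8 and 40.6 FPKM, Mitf 44.0 and 40.7 FPKM, MED26 37.4 and 36.3 FPKM, pan 28.8 and 26.2 FPKM and pho 21.5 and 19.7 FPKM. The Pax, forkhead and homeodomain genes were near 0. sv and fd102C were listed at 0 in both groups, toy had 0.417 FPKM and was listed at 0 with high sugar, and ey was listed at 0 with medium sugar and had 0.0754 FPKM with high sugar. onecut was likewise listed at 0 and at 0.158 FPKM, and zfh2 had 0.676 and 2.00 FPKM. With a mean of 1.34 FPKM, zfh2 is among the 11 counted above and is 1 of the 2 higher. None of these 6 genes was tested by the authors.

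Neuronal and synaptic genes ranged in mean from 0.0318 to 122 FPKM, with 6 of 9 at 1 FPKM or more and 0 calls among 4 tested. cals, the kainate-type receptor gene CG11155 (54.7 and 43.3 FPKM), unc-13 (32.7 and 28.2 FPKM) and Caps (7.84 and 8.26 FPKM) were tested. Not tested were the synaptotagmin gene Syt7, with 8.10 and 5.78 FPKM, CG1732, with 0.567 and 3.37 FPKM, and mGluRA, dpr7 and CG9935, each listed at 0 with medium sugar and at 0.0636, 0.794 and 0.829 FPKM with high sugar. Syt7 was thus lower with high sugar and the other 4 untested genes, all near 0 with medium sugar, were higher. The neuron markers given above were higher too, and their part here was not tested. In the muscle and cytoskeleton list, Zyx102EF had 40.3 and 29.5 FPKM.

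Set beside each other, the tables shared most of their expressed genes of chromosome 4, although each was scaled on its own. A mean of 1 FPKM was reached in both tables by 67 of 86 members (77.9%), in embryos alone by 12, in sperm alone by 1 (CG11231) and in neither by 6. On 3L 51.3% of genes reached it in both tables, 15.6% in embryos alone and 9.05% in sperm alone. Over the 67 members, the median log2 ratio of sperm over embryo was -1.41 with medium sugar and -1.59 with high sugar, against -0.67 and -0.64 over 1469 genes of 3L. Only 5 of the 67 had the higher value in sperm with medium sugar, and 2 with high sugar, where 31.7% and 32.3% of the 3L genes did. The 5 were CR43361, pncr013:4, RhoGAP102A, Pur-alpha and myoglianin. Rank within a table does not depend on its scale. The median member stood at percentile 92.4 of all genes in medium sugar embryos and at percentile 85.8 in medium sugar sperm.

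Among members above 0 in both medium sugar groups, the largest distances belonged to CG1732, with a level in sperm of 0.00769 times that in embryos with medium sugar, zfh2 at 0.00928 times, Actbeta at 0.0115 times, toy at 0.0156 times and CG33978 at 0.0169 times. CG33978 had 213 and 226 FPKM in embryos but 3.60 and 3.65 FPKM in sperm. Rfabg, first in embryos, stood at 0.0284 times. At the other end, CR43361, listed as a pseudogene in the newer annotation, had 5.50 and 4.53 FPKM in embryos and 18.5 and 13.6 FPKM in sperm. These genes were picked for their values. By direction between diets, 35 of the 67 members were higher in embryos and lower in sperm, 21 lower in both, 6 lower in embryos and higher in sperm and 5 higher in both. The libraries of the tissues are separate, and the difference between the tissues was not tested.

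**Figure D5:**
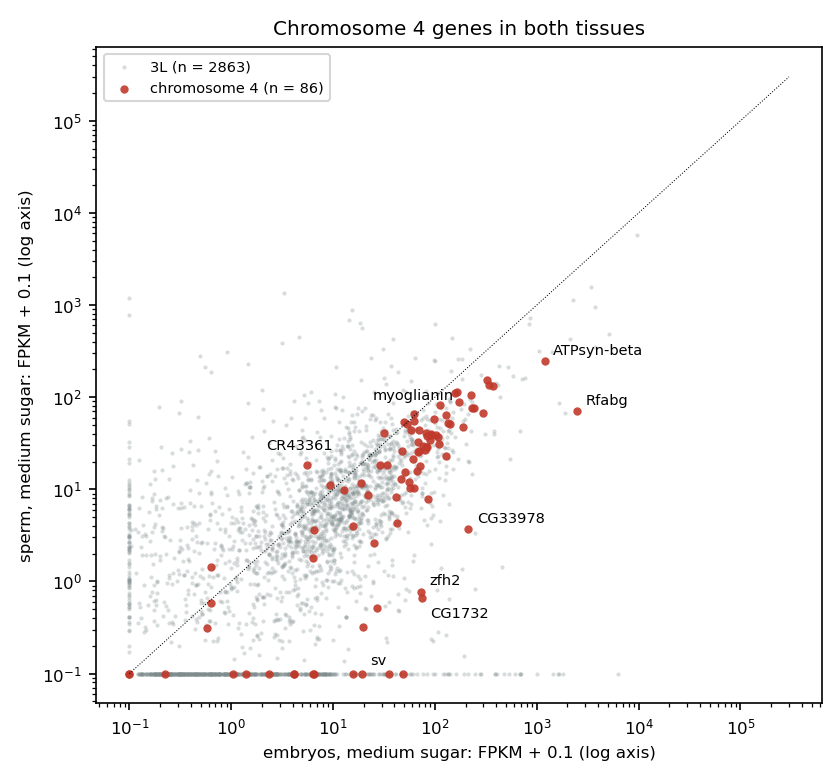
Level in medium sugar sperm (y axis) against level in medium sugar embryos (x axis), both as FPKM + 0.1 on log axes, for chromosome 4 (red, n = 86) and 3L (grey, n = 2863); the dotted line marks equal values, and each table was scaled on its own. Nearly all red points lie under the line, with CG1732 and zfh2 far below it and CR43361 above it.

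Of the genes elsewhere in the genome whose products act on this chromosome, 9 of 9 had a mean above 1 FPKM in both tables. None of the 9 tested in embryos or the 8 tested in sperm was called. In embryos 2 were higher and 7 lower, with a median log2 ratio of -0.22, and in sperm 2 were higher and 7 lower, with a median of -0.14. Pof had 2.60 and 2.95 FPKM in embryos and 10.3 and 15.9 FPKM in sperm. The gene of HP1a, on 2L, had 95.5 and 74.0 FPKM in embryos (unadjusted p = 0.167 in the authors' deposited table) and 24.7 and 23.8 FPKM in sperm. The H3K9 methyltransferase gene egg had 3.46 and 2.92 FPKM in embryos and 2.21 and 1.39 FPKM in sperm, and its partner wde 15.1 and 16.8 FPKM and 8.16 and 5.26 FPKM. Pof was thus the member of this list with a higher value in both tissues under high sugar, and no difference passed the authors' test.

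Overlapping genes limit a few values. Among the members 8 (9.30%) share their locus string with another gene, against 38.2% on 3L: Asator with pncr013:4, CG11093 with sphinx, fd102C with CG33797, and CG17471 with CG33521. In the last pair the sperm values went apart, with 38.8 and 40.3 FPKM for CG17471 and 31.2 and 20.7 FPKM for CG33521. The noncoding gene sphinx had 1.30 and 1.62 FPKM in embryos and was listed at 0 and at 1.22 FPKM in sperm. In all, 7 members were listed at 0 in both sperm groups and 2 in both embryo groups.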

How the data were processed

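Per the labels' protocols, Trizol RNA was freed of rRNA with Ribo-Zero and a stranded TruSeq kit was used. The submitters' processing notes name Cuffdiff 2.1.1, TopHat2 2.0.8 and BDGP5. For annotation, options, strand setting and scaling, the sources used here give nothing. The authors deposited FPKM per gene and group, a test statistic (a score) and p-values with their Benjamini-Hochberg adjusted form, per the file headers. A log2 fold change was recorded for sperm only. The deposited log2 values and statistics were not used. Which tissue a table holds was read from its title. The number of per-sample columns left unused is 0.

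Members were the genes whose locus begins with 4, without those named Rp; the same was done for 3L. A call was an adjusted p in the authors' table under 0.05. No test could be refitted, and nothing says whether the 2 libraries of a group were separate collections, so p-values may measure a technical spread. Log2 ratios used FPKM + 0.1, which understates changes of low genes. Median ratios took genes with a mean of at least 1 FPKM. Starts count from 0 in the tables, and 1 was added. Lengths, biotypes and newer symbols came from BDGP6 by identifier; its coordinates were not used. CaMKII, JYalpha and CG11231 were not matched there. Functions were tested on simulated tables (Python 3.11.15, pandas 2.3.3).

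Members, lists and tests were chosen with earlier results of these data known. For each table the rule named called members, the 8 highest levels, the 4 highest and 4 lowest ratios at 5 FPKM or more, and the top 2 of each role list (22 genes each). Of these, 1 gene is not reported here, though it stays in all counts and medians. Other genes were chosen after their values were seen. Alternatives were other thresholds, pseudocounts, minimum levels, centring, and leaving out overlapping genes.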

Additional observations from a re-analysis of the deposited data

How the results depend on the processing

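The count of called members was 0 in both tables at adjusted p thresholds of 0.01 and 0.1, with the adjustment recomputed over tested genes or those at 1 FPKM or more, and with a minimum fold. At an unadjusted p under 0.05, added after seeing the data, it was 0 in embryos and 1 in sperm. The embryo median log2 ratio of 0.01 stayed positive and at most 0.0214 under pseudocounts of 0.01 and 1, minimum levels from none to 10 FPKM, Rp genes kept, overlapping genes left out and protein-coding genes alone. It came to 0.0473 when centred on the 3L median and to 0.0479 when centred on genes at 10 FPKM or more; these 2 shifts are the centres themselves, and the sign stayed positive. The sperm median of -0.21 ran from -0.22 to -0.13 under the same alternatives and stayed negative, with -0.14 without a filter. The median member level, as the mean of both groups, ran from 62.1 to 67.3 FPKM in embryos and from 18.8 to 28.4 FPKM in sperm. The minimum of 10 FPKM, the protein-coding selection and the centring at 10 FPKM were added after seeing the data. No paired analysis was possible because the columns carry 1 value per group, and for the same reason no replicate could be left out. Depth is unknown, so a value of 0 has no upper limit.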

Other observations

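RpS3A, the ribosomal protein gene of chromosome 4 that the selection left out, lies at 85683 to 87864 and had 4193 and 4164 FPKM in embryos and 906 and 782 FPKM in sperm, above every one of the 86 members in each group. Its sperm value was lower with high sugar with a log2 ratio of -0.21, close to the median of the members, and its unadjusted p was 0.479 in the authors' deposited table.

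In embryos the members of the first stretch of 250 kb leaned higher, with 12 of 14 at 1 FPKM or more above 0 and a median log2 ratio of 0.05, while from 500 to 750 kb 10 of 16 were lower with a median of -0.04. Neighbouring genes and pooled values are not independent, and no test was made of this.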
